A study of Mus musculus with 40 samples.

Results

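The 8 genes described here encode 6 peroxins, the proteins that assemble and divide peroxisomes, and 2 ABC transporters of the peroxisomal membrane. The peroxins were Pex11a, Pex3, Pex5, Pex13, Pex16 and Pex19, and the transporters were Abcd2 and Abcd3. They were picked by gene symbol out of the 21448 symbols that the assay covers, and each gene was read on its most counted probe, with the second probes of Pex11a and Pex13 as a check. These genes hold 10 of the 30146 probes in the table analysed here, which has fewer probes than the study's text states for the assay.

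Peroxisomes oxidize fatty acids that are too long or too branched for mitochondria, and the liver is rich in them. Their membrane proteins are inserted by Pex19, a cytosolic chaperone, with Pex3 as its docking receptor on the membrane and Pex16 as the protein that recruits Pex3. Enzymes of the peroxisomal matrix are carried in by the receptor Pex5 through a docking complex that contains Pex13, Pex11a elongates the membrane ahead of division, and transporters of ABC subfamily D bring acyl-CoA esters into the organelle. In rodent liver, peroxisome proliferators act through PPARα, a nuclear receptor of hepatocytes, and enlarge this compartment.

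Livers came from wildtype Crl:CD1(ICR) mice of both sexes that received GenX, a fluorinated ether acid, by oral gavage over 90 days. Treated mice received 5, 0.5 or 0.1 mg/kg bw/d and controls (dose 0) deionized water. Each of the 8 groups held 5 mice, the first ones by animal number, and each mouse gave 1 section of formalin-fixed, paraffin-embedded liver, so a value covers the small piece of liver on that section. The sections were measured with TempO-Seq, in which paired DNA probes that lie side by side on an RNA are joined, amplified and sequenced. Expression is given as counts per 1000000 reads after TMM normalization (CPM), on a probe scale that does not allow levels of different genes to be compared.

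The library of female 355 (0.5 mg/kg) was left out for its low depth of 6711981 reads, and 5 of the 8 members had no read in it. The other 39 libraries held 10341341 to 15562253 reads. Because counts came in steps of 20.8 to 49.8 reads, which is taken here as the yield of 1 captured molecule, they stand for an estimated 287727 to 655905 molecules. On this scale the libraries held 3 to 105 molecules of Pex11a, 4 to 25 of Pex3, 7 to 23 of Pex5, 10 to 41 of Pex13, 35 to 174 of Pex16, 25 to 158 of Pex19, 6 to 151 of Abcd3 and 0 to 5 of Abcd2. Y-linked probes summed to 410 to 1196 reads in labelled males and to 0 in labelled females. Male control 105 was lowest among the male controls for 6 of the 7 members that had reads there, with a depth of 12002741 reads. Calls of members that change without this mouse are therefore given both ways, and shifts that change no call mostly are not.

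The 8 genes lie on 8 different chromosomes of the GRCm38 build (mm10): Pex11a at chr7:79735957-79743131 and Pex3 at chr10:13523842-13553142, both on the minus strand, Pex5 at chr6:124396816-124415067 and Pex13 at chr11:23646479-23665959, both minus, Pex16 at chr2:92374676-92381217 and Pex19 at chr1:172126755-172136493, both plus, and Abcd2 at chr15:91145871-91191799 and Abcd3 at chr3:121758774-121815302, both minus. All are annotated as protein coding in GENCODE M21. Promoter windows of 300 bases (250 before and 50 after a start site, RefSeq, GRCm38.p6) were found for 6 of them. The windows printed here belong to 3 members whose probes changed with dose (Pex11a, Abcd3, Pex16) and to 1 whose probe did not pass the test at any dose (Pex3). Capitals mark the GC box GGGCGG and the CCAAT box, searched on both strands, and each sequence is written 5′ to 3′ on the strand of its gene.
Pex11a promoter, chr7:79743082-79743381, minus strand: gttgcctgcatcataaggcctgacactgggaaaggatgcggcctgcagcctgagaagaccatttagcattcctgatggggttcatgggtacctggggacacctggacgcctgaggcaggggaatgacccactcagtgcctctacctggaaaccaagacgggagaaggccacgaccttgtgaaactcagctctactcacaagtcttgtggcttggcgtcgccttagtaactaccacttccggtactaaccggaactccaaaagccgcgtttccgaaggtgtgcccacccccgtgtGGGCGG
Abcd3 promoter, chr3:121815253-121815552, minus strand: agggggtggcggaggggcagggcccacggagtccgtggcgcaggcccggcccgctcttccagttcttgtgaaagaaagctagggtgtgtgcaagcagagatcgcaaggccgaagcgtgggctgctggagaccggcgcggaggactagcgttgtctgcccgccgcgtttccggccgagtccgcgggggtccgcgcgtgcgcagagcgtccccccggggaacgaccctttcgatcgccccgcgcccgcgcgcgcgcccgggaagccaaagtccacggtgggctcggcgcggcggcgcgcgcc
Pex16 promoter, chr2:92374426-92374725, plus strand: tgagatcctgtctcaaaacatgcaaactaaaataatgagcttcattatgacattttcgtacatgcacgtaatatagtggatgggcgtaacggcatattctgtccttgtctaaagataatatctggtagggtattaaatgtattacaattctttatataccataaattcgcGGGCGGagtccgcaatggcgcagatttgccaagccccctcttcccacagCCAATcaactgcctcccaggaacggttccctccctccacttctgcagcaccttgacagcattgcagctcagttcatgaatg
Pex3 promoter, chr10:13553093-13553392, minus strand: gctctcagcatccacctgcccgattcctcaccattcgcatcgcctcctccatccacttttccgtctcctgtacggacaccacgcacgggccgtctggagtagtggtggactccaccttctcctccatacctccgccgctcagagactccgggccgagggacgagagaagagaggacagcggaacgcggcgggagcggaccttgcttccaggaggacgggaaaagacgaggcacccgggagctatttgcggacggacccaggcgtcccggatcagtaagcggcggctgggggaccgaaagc

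The AGGTCA core of PPAR response elements was searched on both strands as well. It occurred 0 times in the 10 windows of the 6 members, including Pex5 and Pex13, while 16.3% of all 32851 promoter windows held it, which says only that these letters are not in these windows. The GC box was present in the windows shown for Pex11a and Pex16 and absent from those of Abcd3 and Pex3, against a share of 35.7% of all windows. The CCAAT box was present in that of Pex16 alone among the 4, against 37.4% of all windows. G and C made up 57.3% of the Pex11a window, 73.7% of that of Abcd3, 44.3% of that of Pex16 and 64.3% of that of Pex3, where the median window held 52.7%.

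At 5 mg/kg bw/d, Pex11a, Abcd3, Pex16 and Pex19 were higher than in controls in both sexes, while Pex3, Pex5 and Pex13 did not pass the test in either. Abcd2 was called higher in males at this dose, against controls without a read. It was at the limit of detection, and 2 of the 5 treated males held no estimated molecule of it. In a fit of these 2 groups alone its probe was not tested. Among males, 5 of the 8 members were called higher and 0 lower, where 5.59% of all 12412 genes were called higher and 9.35% were called in either direction. In females 4 were called higher and 0 lower, against 2.09% higher and 4.09% in either direction. The median log2 fold change of the members was 0.58 in males, where that of all genes was 0.11, and 0.73 in females, where it was -0.01. Calls are adjusted p values below 10% from edgeR's quasi-likelihood test over all probes, and DESeq2 called 4 members in each sex, where it called 11.7% of all genes in males and 6.15% in females. The male count was 4 without male control 105, a setting for which the share of all genes is not given.

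At 0.5 mg/kg bw/d only Pex11a in males was called, 1 of 8 members, where 1.88% of all genes were called higher and 2.61% in either direction. In females at this dose edgeR called 0 of 8, where 0.177% of all genes were called higher and 0.201% in either direction. At an unadjusted p below 0.05 (edgeR) there were 2 members, beside 1220 of all 12412 genes. DESeq2 called 1 member in each sex at this dose, where it called 5.18% of all genes for males and 1.64% for females. At 0.1 mg/kg bw/d the count was 0 of 8 in both sexes by edgeR and by DESeq2. At an unadjusted p below 0.05 (edgeR) there were 0 members in males and 1 in females (Pex13, lower), beside 1598 and 1191 of all 12412 genes. The share of all genes called there was 0.0403% in males, all of them higher, and 0% in females, or 1.46% and 0.897% by DESeq2.

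**Figure D1:**
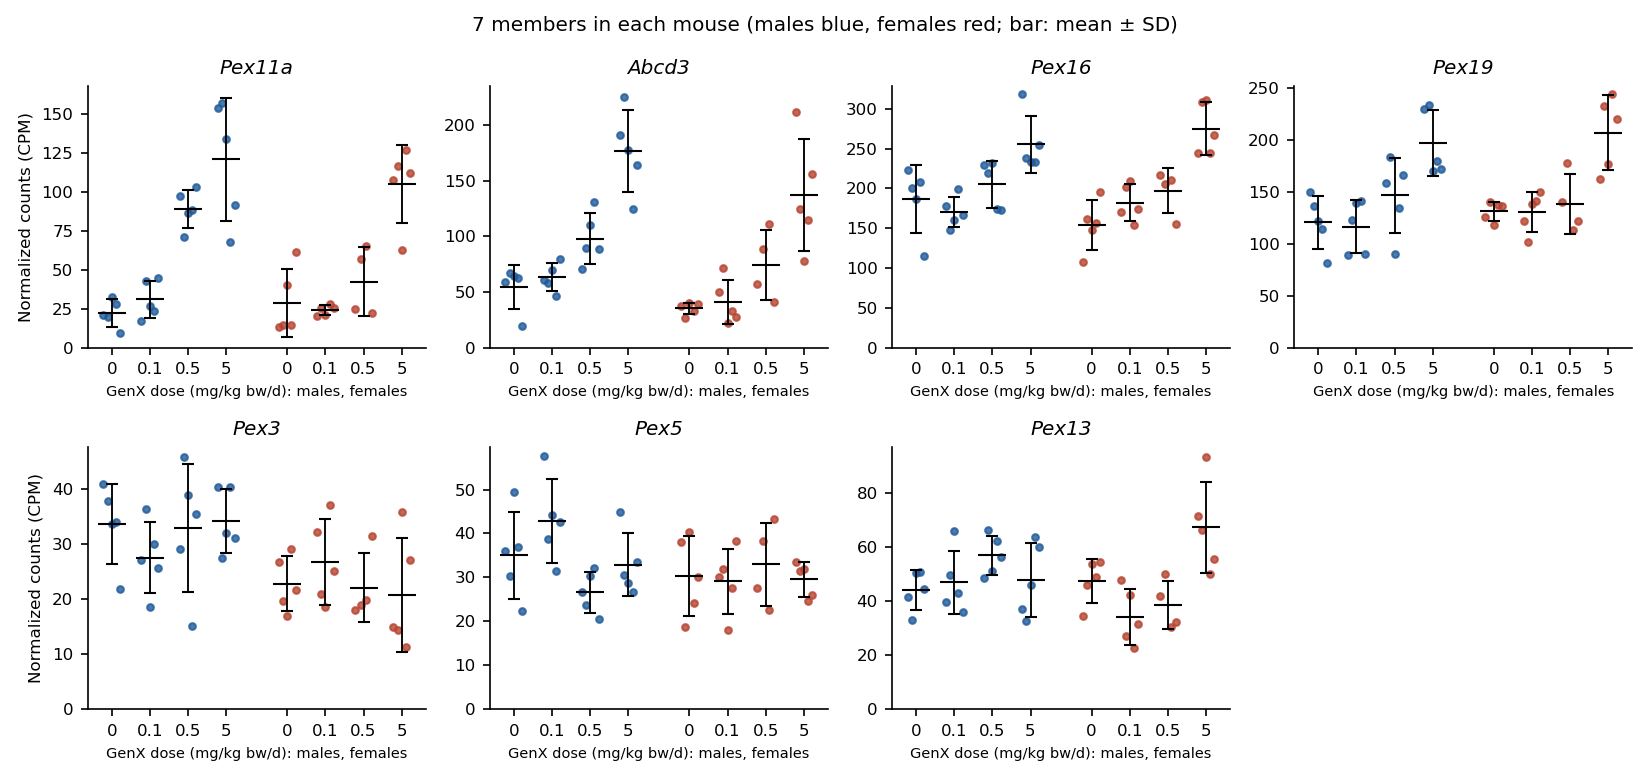
Normalized counts (CPM, linear axes from 0) of 7 members in each mouse by dose, males in blue and females in red, with the group mean ± SD as a bar. At 5 mg/kg bw/d the lowest treated mouse exceeds the highest control of its sex for Pex11a, Abcd3, Pex16 and Pex19, and the groups overlap for Pex3, Pex5 and Pex13. The share of all genes whose groups do not overlap is not given here.

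Pex11a, which shapes the peroxisomal membrane before division, had the largest change in males among the members with reads in every mouse. In male controls the 5 mice measured 21.1, 19.9, 32.5, 28.3 and 9.39 CPM. At 0.5 mg/kg the males measured 97.1, 71.1, 86.2, 88.6 and 103 CPM, and at 5 mg/kg 154, 157, 134, 67.7 and 91.7 CPM. Every male at either dose lay above every male control, and the ranges of the 2 doses overlapped. Here and below, such separation only describes the mice measured, because its share over all genes is not given. Group means from control to top dose were 22.3 ± 8.85, 31 ± 12.1, 89.1 ± 12 and 121 ± 39.5 CPM (SD, n = 5). On the log2 scale the change was 2.00 (SE 0.35, adjusted p = 0.000273, edgeR) at 0.5 mg/kg and 2.44 (SE 0.36, adjusted p = 1.31e-06) at the top dose, and 0.48 (SE 0.34, adjusted p = 0.834) at 0.1 mg/kg. The call at 0.5 mg/kg was lost when library 355 was kept (log2 fold change 2.00, adjusted p = 0.112).

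Pex11a levels in females stayed within the range of their controls up to 0.5 mg/kg, apart from 1 mouse, and rose at 5 mg/kg. Female controls measured 13, 14.2, 40.1, 14.3 and 61.6 CPM, a wider spread than in the male controls. The 4 females at 0.5 mg/kg measured 24.5, 56.8, 65.4 and 22 CPM, and those at 5 mg/kg 108, 117, 62.5, 127 and 112 CPM. The lowest female at 5 mg/kg lay just above the highest control, so the groups did not overlap. Females at 0.1 mg/kg had a mean of 24.1 ± 3.22 CPM (SD, n = 5). Against control, the top dose differed by a log2 fold change of 1.87 (SE 0.35, adjusted p = 0.000265, edgeR), the middle dose by 0.56 (SE 0.36, adjusted p = 0.709) and the lowest by -0.25 (SE 0.34, adjusted p = 1). The second Pex11a probe had no read in 16 of 39 libraries and passed in no comparison, with log2 fold changes at 5 mg/kg of 1.63 (SE 2.09) in males and 2.89 (SE 2.19) in females.

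Abcd3, also called PMP70, a major protein of the peroxisomal membrane that carries branched-chain and dicarboxylic acyl-CoA esters and bile acid precursors, was higher at the top dose in both sexes. Male controls measured 58.9, 67.1, 64, 63 and 19.7 CPM. Males at 0.5 mg/kg measured 70.6, 89.7, 110, 131 and 88.6 CPM, and males at 5 mg/kg 191, 225, 178, 125 and 164 CPM. Both dose groups lay wholly above the controls, and male control 105 was far under the other 4. The log2 fold change was 0.84 (SE 0.28, adjusted p = 0.141) at 0.5 mg/kg, which missed the threshold, and 1.70 (SE 0.29, adjusted p = 2.16e-05, edgeR) at 5 mg/kg. Without male control 105 these values were 0.63 (adjusted p = 0.306) and 1.48 (adjusted p = 0.000172).

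Abcd3 in females followed the same order of doses. The female controls measured 37.1, 26.9, 40, 33.1 and 38.8 CPM, and the 4 females at 0.5 mg/kg 57.1, 88.3, 111 and 40.7 CPM. Females at 5 mg/kg measured 212, 125, 77.6, 115 and 156 CPM. No female at 0.5 or 5 mg/kg overlapped the controls, although mouse 354 at 0.5 mg/kg was within 1 CPM of the highest. The log2 fold change was 1.08 (SE 0.30, adjusted p = 0.19) at 0.5 mg/kg and 1.96 (SE 0.29, adjusted p = 3.2e-06, edgeR) at 5 mg/kg. Without mouse 354 the value at 0.5 mg/kg was 1.28 (adjusted p = 0.0506), and DESeq2 gave 1.08 (adjusted p = 0.069). At 0.1 mg/kg it was 0.22 (SE 0.28, adjusted p = 1) in females and 0.21 (SE 0.28, adjusted p = 1) in males.

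Among the 3 proteins that insert peroxisomal membrane proteins, Pex16 and Pex19 rose at 5 mg/kg and Pex3 did not pass the test. Pex16 in male controls measured 223, 201, 186, 208 and 115 CPM, and in males at 5 mg/kg 318, 238, 233, 233 and 254 CPM. In female controls it measured 108, 162, 148, 156 and 195 CPM, and in females at 5 mg/kg 244, 308, 311, 244 and 267 CPM. The groups did not overlap in either sex, and the distance was smaller in males, where the log2 fold change was 0.45 (SE 0.16, adjusted p = 0.082, edgeR), than in females, where it was 0.84 (SE 0.16, adjusted p = 0.000382). The difference between the sexes was 0.38 (SE 0.22, adjusted p = 0.494). The male call was lost in 10 of 17 other settings (adjusted p from 0.12 to 0.25), among them DESeq2, its size factors, no filter on low counts, all 40 libraries, only the 2 groups compared, and without any 1 of male controls 103 and 105 or treated males 401, 402 and 405. Without mouse 105 the male value was 0.32 (adjusted p = 0.25), and without mouse 401, the highest, 0.36 (adjusted p = 0.219). At 0.5 mg/kg the value of Pex16 was 0.14 (SE 0.16, adjusted p = 0.97) in males and 0.36 (SE 0.17, adjusted p = 0.485) in females.

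Pex19, the chaperone, changed by nearly the same amount in both sexes at 5 mg/kg. Male controls measured 150, 136, 122, 114 and 81.8 CPM, and males at 5 mg/kg 230, 234, 170, 180 and 172 CPM. Female controls measured 126, 140, 118, 137 and 136 CPM, and females at 5 mg/kg 162, 233, 177, 244 and 220 CPM. In each sex the lowest treated mouse exceeded the highest control. The log2 fold change was 0.71 (SE 0.18, adjusted p = 0.00691, edgeR) in males and 0.66 (SE 0.18, adjusted p = 0.0272) in females, and the difference between the sexes was -0.05 (SE 0.25, adjusted p = 1, 95% interval -0.54 to 0.45). At 0.5 mg/kg the values were 0.28 (SE 0.18, adjusted p = 0.519) and 0.08 (SE 0.19, adjusted p = 1). Both calls at 5 mg/kg were lost when library 355 was kept (adjusted p = 0.105 in males and 0.31 in females).

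Pex3, the membrane receptor of Pex19, passed the test in no comparison. Its group means ran from 27.5 ± 6.51 to 34.3 ± 5.84 CPM in males and from 20.7 ± 10.4 to 26.8 ± 7.78 CPM in females (SD, n = 5 in each of these groups), and every treated group overlapped its controls. The log2 fold change at 5 mg/kg was 0.03 (SE 0.30, 95% interval -0.56 to 0.61) in males and -0.14 (SE 0.30, 95% interval -0.73 to 0.45) in females. These intervals overlap those of Pex19 at this dose (0.36 to 1.06 in males and 0.31 to 1.01 in females). A difference between Pex3 and Pex19 was not tested. The Pex3 intervals do not show that Pex3 was constant.

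The 2 members of the matrix import route did not pass either. Pex5, the cargo receptor, had a log2 fold change at 5 mg/kg of -0.09 (SE 0.25, 95% interval -0.59 to 0.41) in males and -0.04 (SE 0.26, 95% interval -0.54 to 0.46) in females. Its groups overlapped at every dose, with male means from 26.6 ± 4.7 to 42.9 ± 9.57 CPM and female means from 29.1 ± 7.36 to 32.9 ± 9.54 CPM. Pex13, a part of the docking complex, had a mean of 67.4 ± 16.9 CPM in females at 5 mg/kg against 47.6 ± 8.13 CPM in their controls (SD, n = 5), where 4 of 5 treated mice lay above all controls. Its log2 fold change there was 0.50 (SE 0.23, adjusted p = 0.258), and in males it was 0.12 (SE 0.23, adjusted p = 1). In females at 0.1 mg/kg it was -0.48 (SE 0.23, adjusted p = 0.474). The second Pex13 probe gave -0.84 (SE 1.03) in females at 5 mg/kg.

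**Figure D2:**
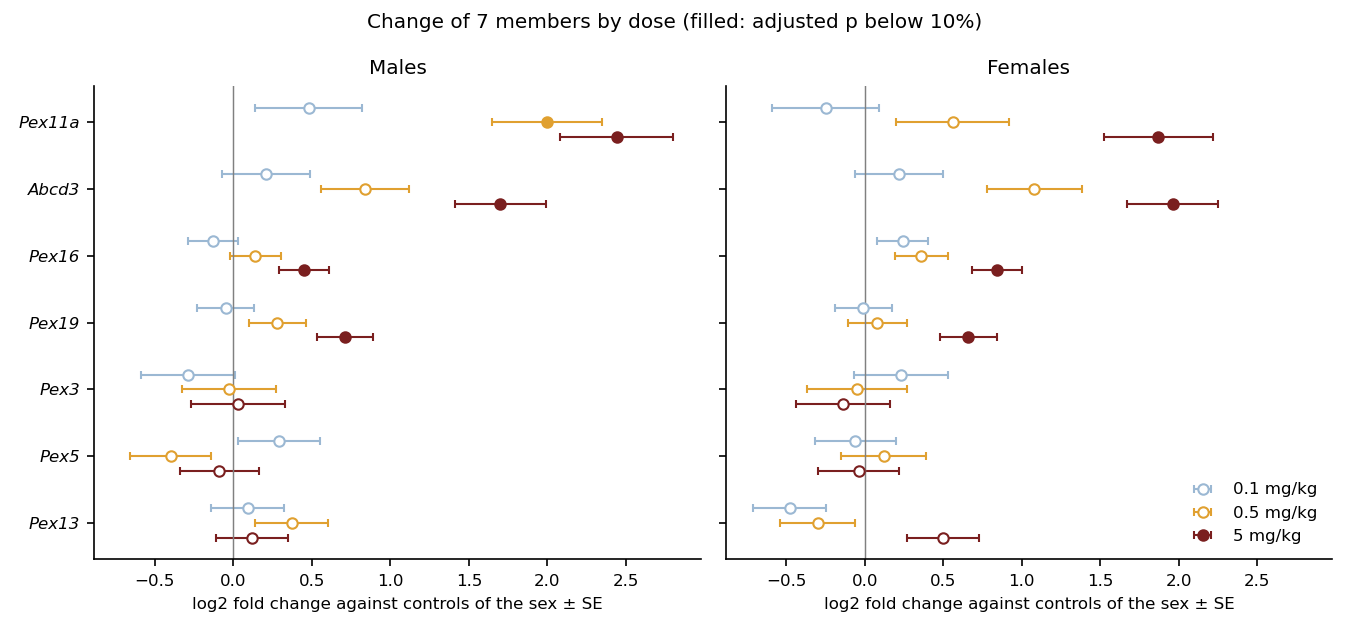
Log2 fold change against the controls of the same sex, with its SE as a bar, for 7 members at 3 doses, males on the left and females on the right, where filled points have an adjusted p below 10%. Pex11a in males is already at 2.00 at 0.5 mg/kg, Abcd3 at 5 mg/kg reaches 1.70 for males and 1.96 for females, and no point of Pex3, Pex5 or Pex13 is filled.

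Abcd2, which carries very long-chain and polyunsaturated acyl-CoA esters, was at the limit of detection. No read fell on its probe in any of the 5 male controls or the 5 males at 0.1 mg/kg. Males at 0.5 mg/kg had 0, 28, 0, 0 and 27 reads, and males at 5 mg/kg 64, 127, 9, 0 and 73 reads. Reads thus appeared in 2 of 5 and 4 of 5 males, and of the 5 males at 5 mg/kg 2 (0 and 9 reads) held no estimated molecule and could not be told from the controls. In all, the males at 5 mg/kg held an estimated 11 molecules and the male controls 0. Per captured molecule, the level at 5 mg/kg was 2.13-fold that of a floor of 3 molecules over the control group. The floor covers counting error in the controls only, and none was set on the 11 molecules, so this is not a minimum fold. The adjusted p was 0.0316 (edgeR) at 5 mg/kg and 0.202 at 0.5 mg/kg. On the scale of molecules, and in a fit of the male controls and top dose group alone, the probe did not pass the filter on low counts and was not tested. Libraries of males at 5 mg/kg also held more captured molecules, 483549 to 655905, than those of male controls, 287727 to 369710, and the part of this in the appearance of Abcd2 reads was not tested.

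Females carried Abcd2 reads without GenX. The 5 female controls had 57, 25, 0, 16 and 90 reads, the females at 0.1 mg/kg 0, 78, 0, 0 and 0, and the 4 at 0.5 mg/kg 121, 91, 121 and 87. Females at 5 mg/kg had 154, 0, 107, 40 and 21 reads. Only at 0.5 mg/kg did all treated females exceed the controls in CPM (6.59 to 9.96 against 0 to 5.98), and no dose passed the test. The log2 fold change was 1.49 (SE 2.01, adjusted p = 1) at 0.5 mg/kg and 0.80 (SE 1.90, adjusted p = 1) at 5 mg/kg. Between the untreated sexes, females held an estimated 6 molecules and males 0. This was 1.6-fold a floor of 3 molecules over the male controls, again with no error set on the 6 molecules and so not a minimum fold. The adjusted p was 0.075 (edgeR), a call that did not hold in 9 of 16 other settings, among them the omission of any 1 male control.

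**Figure D3:**
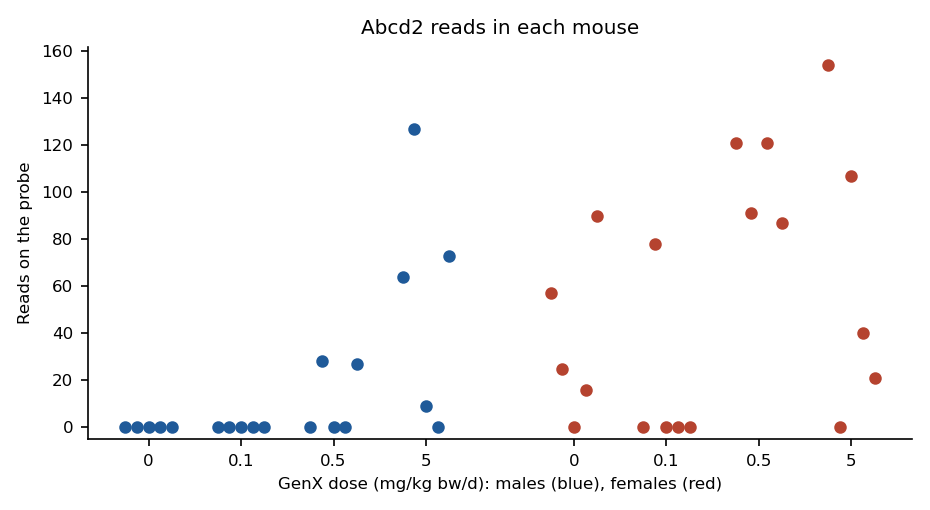
Reads on the Abcd2 probe (linear axis) in each mouse by dose, males in blue and females in red, 1 point per mouse. Male controls and males at 0.1 mg/kg are all at 0, and reads appear in 4 of 5 males at 5 mg/kg and in 4 of 5 female controls.

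The 2 upper doses were compared within each sex, where a difference that is not called does not show that a change had ended. In females Pex11a was higher at 5 than at 0.5 mg/kg, with a log2 difference of 1.32 (SE 0.37, adjusted p = 0.076, edgeR), and it was the 1 of 8 members called, where 0.628% of all genes were called higher and 1.38% in either direction. This call was lost without any 1 of 6 mice (351, 354, 451, 452, 454 and 455), with values from 1.11 to 1.31. DESeq2 called 4 members here and 3.47% of all genes. In males the difference of Pex11a was 0.44 (SE 0.34, adjusted p = 0.797, 95% interval -0.22 to 1.10). Both edgeR and DESeq2 called 0 of 8 members in males, where edgeR called 1.17% of all genes higher and 3.01% in either direction, and DESeq2 5.03%. At an unadjusted p below 0.05 (edgeR) there were 2 members in males and 5 in females, beside 1970 and 1713 of all 12412 genes. In each sex the mice at 5 mg/kg lay wholly above those at 0.5 mg/kg only for Pex16. Its log2 difference was 0.31 (SE 0.16, adjusted p = 0.333, edgeR) in males and 0.48 (SE 0.17, adjusted p = 0.268) in females. Abcd3 missed the threshold with 0.85 (SE 0.28, adjusted p = 0.125, edgeR) in males and 0.88 (SE 0.30, adjusted p = 0.229) in females. So did Pex13 in females (0.80, SE 0.25, adjusted p = 0.137). Of the 8 members, 7 in males and 5 in females had a log2 difference above 0.

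The effect of a dose was not shown to differ between the sexes for any member. The interaction of sex and dose was called for 0 of 8 members at 0.1, 0.5 and 5 mg/kg by edgeR and by DESeq2. Of all genes, edgeR called 0%, 0.322% and 1.19% and DESeq2 1.14%, 2.3% and 3.32%. At an unadjusted p below 0.05 (edgeR) there were 0, 2 and 1 members, beside 990, 1333 and 1563 of all 12412 genes. Among the members with reads in every mouse, Pex11a at 0.5 mg/kg came nearest, with a female effect 1.44 log2 units below the male one (female minus male -1.44, SE 0.50, adjusted p = 0.213). The interaction of Abcd2, with an adjusted p of 0.186 (edgeR) at 5 mg/kg, cannot be sized because its male controls were all at 0. Between control females and control males 1 of 8 members (Abcd2) was called by edgeR and by DESeq2, where 3.89% and 6.58% of all genes were called, and Abcd3 was lower in female controls by a log2 difference that missed the threshold (-0.63, SE 0.28, adjusted p = 0.245). Without male control 105 this Abcd3 difference was -0.85 and was called (adjusted p = 0.0941), while that of Abcd2 was no longer called (adjusted p = 0.139).

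The order of the 8 groups by mean level put 5 mg/kg of both sexes first for 4 members, Pex11a, Abcd3, Pex16 and Pex19. For Pex11a, males at 0.5 mg/kg followed with 89.1 ± 12 CPM, above females at 0.5 mg/kg with 42.2 ± 22.2 CPM (n = 4), and the remaining groups lay between 22.3 and 31 CPM, with neighbours closer than the larger of their SDs. For Abcd3 the order was males and females at 5 mg/kg (177 ± 36.6 and 137 ± 50.3 CPM), males and females at 0.5 mg/kg (97.9 ± 23.1 and 74.2 ± 31.3 CPM), then males at 0.1 mg/kg and male controls (63.1 ± 12.6 and 54.5 ± 19.7 CPM), and last females at 0.1 mg/kg and female controls (41 ± 20.2 and 35.2 ± 5.31 CPM). No neighbours in this order of Abcd3 differed by more than the larger of their SDs.

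Other genes of the peroxisome were called at about the share of all genes. Of 22 further peroxins, division factors, transporters and membrane proteins, 21 passed the filter on low counts, all but Pex5l. Called were 1 higher and 1 lower in males at 5 mg/kg, where 9.35% of all genes were called, and 1 higher in females at this dose, where 4.09% were, and the median log2 fold changes were 0.23 and 0.13, beside 0.11 and -0.01 over all genes. At 0.1 and 0.5 mg/kg edgeR and DESeq2 called 0 of 21 in both sexes. Per comparison, 0 to 2 of these genes had an unadjusted p below 0.05 (edgeR), beside 1191 to 2237 of all 12412 genes. The gene that fell was Pxmp2, a channel of the peroxisomal membrane, with group means of 694 CPM in male controls and 417 CPM in males at 5 mg/kg (log2 fold change -0.73, SE 0.15, adjusted p = 0.000524), with all 5 treated males below all controls. In females it was -0.31 (SE 0.15, adjusted p = 0.263). Those that rose were Tmem135, a membrane protein of peroxisomes and mitochondria, in males (0.53, SE 0.17, adjusted p = 0.0516) and Pxmp4 in females (0.72, SE 0.23, adjusted p = 0.0788). The Tmem135 call was lost in 6 of 17 other settings, among them without any 1 of males 104, 105, 401 and 402 (0.49 each), and that of Pxmp4 in 9 of 17, among them without any 1 of females 151, 152, 154, 155, 451, 452 and 454 (0.59 to 0.75).

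Pex14, the docking partner of Pex13, had a log2 fold change at 5 mg/kg of 0.57 (SE 0.30, adjusted p = 0.272) in males and 0.28 (SE 0.30, adjusted p = 0.966) in females, and did not pass the test. For scale, Ehhadh, a matrix enzyme of peroxisomal beta-oxidation, changed by 5.69 (SE 0.20, adjusted p = 5.66e-28) in males and 4.96 (SE 0.19, adjusted p = 6.21e-26) in females, and Cat, the matrix enzyme catalase, had values of 0.02 (SE 0.10, adjusted p = 1) and 0.22 (SE 0.10, adjusted p = 0.258).

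**Figure D4:**
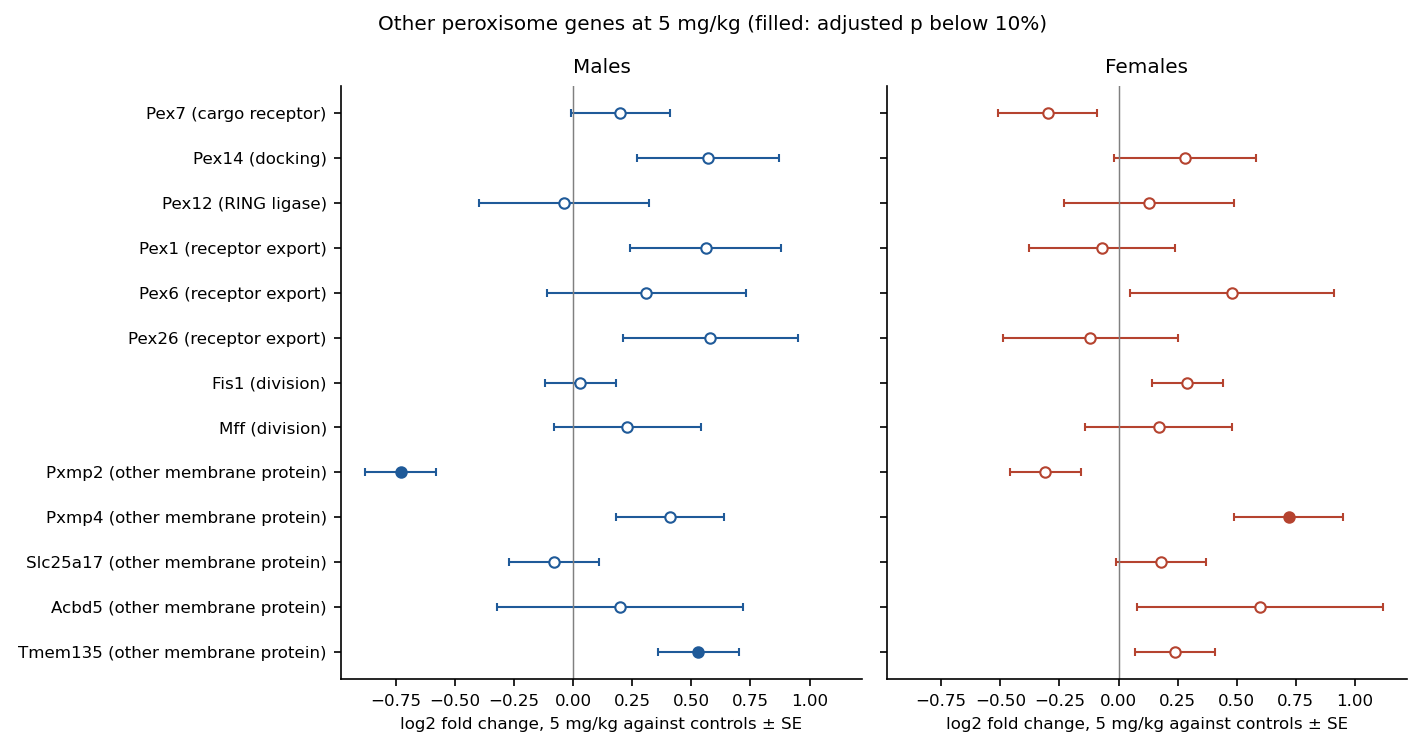
Log2 fold change at 5 mg/kg against controls of the same sex, with its SE as a bar, for 13 of the 21 further peroxisome genes tested, each with an SE below 1 in both sexes, with their role, where filled points have an adjusted p below 10%. Pxmp2 is lower and Tmem135 higher in males, and Pxmp4 is higher in females.

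The genes most like a member in their 6 log2 fold changes against control were sought among 1375 genes called in at least 1 of these comparisons, by root mean square difference. For Pex11a they were Acadl (0.3 log2 units), a mitochondrial acyl-CoA dehydrogenase, Eci1 (0.32), a mitochondrial enoyl-CoA isomerase, and Crot (0.34), the peroxisomal carnitine octanoyltransferase. For Abcd3 they were Ephx1 (0.211), the microsomal epoxide hydrolase, Fabp1 (0.214), the liver fatty acid binding protein, and Decr1 (0.255), a mitochondrial dienoyl-CoA reductase. Those nearest to Pex16 were Swi5, Cox7c and Ftl1-ps1 (0.0926 to 0.105), and to Pex19 Psap, Suclg2 and Hsd17b12 (0.0732 to 0.0979), where the changes compared are small. The comparisons within a sex share their controls, and for Abcd2 no such list is given because its male changes are set against 0 reads.

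Some marker genes of liver cell types were called at 5 mg/kg, in females only hepatocyte markers. At 0.5 mg/kg, where Pex11a was called in males, the hepatocyte marker Ass1 was lower in males (log2 fold change -0.75, SE 0.14, adjusted p = 0.000939, edgeR). Among the hepatocyte markers 5 of 7 had a probe, and their summed level was 34673 to 41899 CPM in male controls and 19396 to 26841 CPM in males at 5 mg/kg, and 27416 to 45285 and 18340 to 27666 CPM in females. Of these 5, Apoa1, Cps1 and Ass1 were called lower at 5 mg/kg in both sexes, and Apoa1 made up most of the sum, with means of 26559 CPM in male controls and 14393 CPM in males at 5 mg/kg. The other 2, Alb and Ttr, were not called. Alb, which encodes albumin, had log2 fold changes of -0.07 (SE 0.11, adjusted p = 0.975) for males and -0.22 (SE 0.11, adjusted p = 0.308) for females. Those of Ttr were -0.16 (SE 0.13) for males and -0.10 (SE 0.13) for females. In these libraries Pex11a, Abcd3, Pex16 and Pex19 were higher. The 6 stellate cell and fibroblast markers summed to 65.7 to 132 CPM in male controls and 165 to 231 CPM in males at 5 mg/kg (2 of 6 called higher, Col1a1 and Col3a1), and to 96 to 166 and 105 to 162 CPM in females (0 of 6). The 4 dividing cell markers summed to 0 to 2.71 CPM and 23.4 to 70.7 CPM in males (1 of 4 called, Top2a, at 0 in the controls, like Mki67), and to 0 to 10.6 and 0 to 33.5 CPM in females. The 5 endothelial markers summed to 134 to 164 and 74.1 to 149 CPM in males (1 of 5 called lower, Clec4g), and to 157 to 203 and 128 to 191 CPM in females.

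Macrophage markers summed to 30.6 to 66.8 CPM in male controls, 41.3 to 51.1 CPM in males at 5 mg/kg, 65.9 to 141 CPM in female controls and 68.2 to 108 CPM in females at 5 mg/kg, with Timd4 at 0 in all 4 groups and 0 of 5 tested markers called. Cholangiocyte markers summed to 31.9 to 60.7, 40 to 95.2, 23.2 to 78 and 26.4 to 44.2 CPM, and lymphocyte markers to 0 to 10.6, 0 to 11.7, 7.11 to 26.5 and 3.84 to 15.5 CPM in the same order, with 0 markers called and with Epcam and Sox9 at 0 in male controls and in both groups at 5 mg/kg. The part of these cell type markers in the changes of the members was not tested. In such bulk sections, fewer cells of a type, less RNA per cell and a change in the expression of the marker genes themselves cannot be told apart.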

How the data were processed

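TempO-Seq libraries from 40 mouse liver sections were analysed. The authors deposited raw counts, whole numbers of reads per probe and mouse with no scaling. The submitters' processing notes name bcl2fastq 2.17.1.14, Bowtie and the mm10 build, and the alignment settings are not given in the sources used here. As in the study's methods, 1 library whose total lay more than 2 SD below the mean of 13041142 reads (SD 1680475) was left out.

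Counts were tested in R 4.3.3 with edgeR 4.0.16 (TMM, the filterByExpr filter, 1 coefficient per group over all 8 groups, quasi-likelihood F test, two-sided), and p values were adjusted by Benjamini and Hochberg over 17877 probes, with a threshold of 10%. Each dose was compared with the controls of its sex, 5 with 0.5 mg/kg within each sex, and the sexes by an interaction and between controls. Intervals are 95%, 1.96 SE on each side. Genes were counted on their most counted probe, 12412 of which were tested. Captured molecules were estimated by dividing counts by the first peak of the histogram of nonzero counts, smoothed with an SD of 2 reads. The alternatives were DESeq2 1.42.0, edgeR with its size factors, a fit without the filter, one with all 40 libraries, one of only the 2 groups compared, counts summed over a gene's probes, estimated molecules, other probes of a gene and leaving out each mouse in turn. Both tools were tested on simulated data. No batch is given in the labels.

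Named were all 8 members, each of 22 other peroxisome genes called in a comparison with controls, reference genes, and the 3 nearest genes of each member called. Pex14 was named from this list after its values were seen, as a partner of a member, and some genes of the list are counted but not reported by name. The members, lists and tests were chosen with earlier results of these data known. Markers were summed CPM on the most counted probe. Promoter sequences are those of RefSeq on GRCm38.p6 and gene positions those of GENCODE M21.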

Additional observations from a re-analysis of the deposited data

Results flagged for a closer look

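In 4 of 62 groups of mice, 1 value of a member stood apart from the rest of its group by Dixon's criterion, a number near what chance gives (about 1 in 20 groups). Abcd3 in male control 105 was at 19.7 CPM, where the other male controls lay between 58.9 and 67.1 CPM. Pex16 in male 401 at 5 mg/kg was at 318 CPM, with the others at 233 to 254 CPM. Pex3 in female 354 at 0.5 mg/kg was at 31.4 CPM, with the others at 18 to 19.9 CPM. Abcd2 in female 252 at 0.1 mg/kg was at 4.91 CPM, where the other 4 mice of the group had no read. The causes were not tested.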

How the results depend on the processing

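Of 811 recomputed log2 fold changes of the members against control, 789 kept their direction and side of the threshold or stayed uncalled, 16 lost a call, 6 gained one and 0 called changes reversed. Calls of Pex11a and Abcd3 at 5 mg/kg held in both sexes in all 17 other settings, apart from the second Pex11a probe. For the counts that follow, the share of all genes called is given in this report only for DESeq2. The other counts therefore show only how the calls of these genes moved with the setting. Without the filter on low counts, the number of members called at 0.5 mg/kg was 2 for males and 1 for females, with 1 in males and 2 in females between 5 and 0.5 mg/kg, and 1 for the interaction at 0.5 mg/kg. On estimated molecules it was 2 and 1 at 0.5 mg/kg, 2 and 5 between the upper doses, and 0 between control sexes. With all 40 libraries it was 0 in males at 0.5 mg/kg, 3 in males at 5 mg/kg, 0 in females between the upper doses and 0 between control sexes, and the count of other peroxisome genes at 5 mg/kg was 1 for males and 0 for females. With only the groups compared it was 3 in males at 5 mg/kg, where Abcd2 was not tested, and 0 other peroxisome genes in females. DESeq2 called 1 member in females at 0.5 mg/kg and 4 between the upper doses in females, and its size factors left 1 other peroxisome gene in males at 5 mg/kg. Leaving out 1 mouse gave 4 to 5 members in males at 5 mg/kg, 0 to 1 in females at 0.5 mg/kg, 0 to 1 in males and 0 to 2 in females between the upper doses, 0 to 1 between control sexes, and, at 5 mg/kg, 1 to 2 other peroxisome genes for males and 0 to 1 for females. The causes were not tested. No paired analysis was possible because each mouse has its own number.

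Abcd2 had at most 5 estimated molecules in a library. Medians were 10 for Pex3, 12 for Pex5 and 19 for Pex13, beside 18 for Pex11a and 22 for Abcd3. The part of molecule numbers in the missing calls was not tested. In males at 5 mg/kg the log2 fold changes of Pex3, Pex5 and Pex13 had SEs of 0.30, 0.25 and 0.23. Changes of the size seen for Pex16 in males (0.45) may thus be missed.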
